A study of Homo sapiens with 12 samples.

Results

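Transcripts of 48 genes that act in the G2 phase and in mitosis were followed in WI-38 fibroblasts, a human line from embryonic lung, in which other genes had been silenced with small interfering RNAs (siRNAs). The genes were chosen by name, for their known roles in entry into mitosis, chromosome segregation and cell division. Earlier results of these data were known when they were chosen. All 48 were found among the 13937 genes of the table, and all 48 were among the 13894 genes tested. The 12 libraries formed 6 groups of 2. The control group received the control siRNA siAS in both siRNA positions of the library titles. The YT group received siAS with siRNAs against YAP and TAZ (WWTR1), the transcriptional coactivators that the Hippo pathway restrains. The cGAS group received siAS with siRNAs against cGAS, the cytosolic DNA sensor, and the STING group received siAS with siRNAs against STING, its adaptor on intracellular membranes. The cGAS_YT and STING_YT groups received the cGAS or STING siRNAs with the YAP and TAZ siRNAs. The titles write sicGAS4x and siSTING4x, but siAS and siYT without that suffix, whose meaning is not stated. All groups are of this one line, grown with serum, and the sources used here do not give the time between transfection and harvest.

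In G2 a cell that has copied its DNA makes the kinases, motors and kinetochore proteins that it will need to divide. Most of their transcripts rise late in the cycle under FOXM1, B-MYB and the MuvB complex, fall again after division, and are low in cells that have left the cycle. Cyclin A and cyclin B activate CDK1 to start mitosis, PLK1 and the Aurora kinases build the spindle, the checkpoint holds anaphase until every kinetochore is attached, and the anaphase-promoting complex then destroys securin and the cyclins. In bulk samples such as these, fewer cells in G2 or mitosis and less RNA per such cell cannot be told apart.

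Promoters are shown first, because the late cell cycle genes are known for a pair of short promoter elements. These are the cell cycle genes homology region (CHR, searched as TTTGAA or TTCGAA on both strands) and the CCAAT box that the factor NF-Y binds (searched as CCAAT on both strands). RefSeq promoter windows on GRCh38.p14, each from 250 bases before to 50 bases after a gene's start, matched 40 of the 48 members by symbol (46 windows, since 6 members have 2). FOXM1, AURKA, PBK, BIRC5, TTK, TPX2, RACGAP1 and UBE2C were not matched. A CHR match was found in 32 of the 40 members (80.0%), against 15.7% of the 9719 tested genes with a window and 19.5% of all 27305 genes with one. A CCAAT match was found in 31 members (77.5%), against 43.2% and 39.7%, and at least 2 in 21 members (52.5%), against 16.1% and 12.9%. Both elements were present in 25 members (62.5%), against 6.47% and 7.85%. GGAATG, the core of the motif of the TEAD factors that YAP and TAZ bind, was present in 7 members (17.5%), against 15.1% and 16.7%. A match is a description of the letters in the window and not a measured binding site. These 8 windows of 150 bases, from 130 before the start to 20 after it, are printed 5′ to 3′ on the gene's strand, with CHR and CCAAT letters of either strand in capitals. The first 6 belong to regulators and markers of mitosis whose transcripts fell in YT, and the last 2, CKS2 and ECT2, to the members with the smallest log2 changes there.
CCNB2: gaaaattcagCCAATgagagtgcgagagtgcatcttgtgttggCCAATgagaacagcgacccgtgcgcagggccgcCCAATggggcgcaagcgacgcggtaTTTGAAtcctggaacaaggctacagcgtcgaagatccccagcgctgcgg
PLK1: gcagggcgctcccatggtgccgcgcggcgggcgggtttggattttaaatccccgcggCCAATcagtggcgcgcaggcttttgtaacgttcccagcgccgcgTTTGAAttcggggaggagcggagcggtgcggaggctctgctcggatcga
CDC20: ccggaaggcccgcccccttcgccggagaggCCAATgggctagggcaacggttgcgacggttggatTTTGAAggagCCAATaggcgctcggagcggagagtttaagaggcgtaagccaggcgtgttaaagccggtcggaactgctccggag
CDK1: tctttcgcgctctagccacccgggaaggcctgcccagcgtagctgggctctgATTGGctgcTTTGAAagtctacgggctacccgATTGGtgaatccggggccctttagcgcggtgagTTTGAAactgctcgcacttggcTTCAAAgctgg
MKI67: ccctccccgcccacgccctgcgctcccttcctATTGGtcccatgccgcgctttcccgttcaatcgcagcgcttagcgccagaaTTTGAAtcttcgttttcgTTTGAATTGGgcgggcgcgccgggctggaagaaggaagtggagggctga
CCNB1: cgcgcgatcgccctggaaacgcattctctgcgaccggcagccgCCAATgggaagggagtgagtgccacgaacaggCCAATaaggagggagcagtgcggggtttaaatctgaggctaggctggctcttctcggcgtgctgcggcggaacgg
CKS2: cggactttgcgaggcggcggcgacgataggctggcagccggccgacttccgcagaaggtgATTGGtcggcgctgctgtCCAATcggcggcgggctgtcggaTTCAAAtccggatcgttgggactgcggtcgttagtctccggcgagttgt
ECT2: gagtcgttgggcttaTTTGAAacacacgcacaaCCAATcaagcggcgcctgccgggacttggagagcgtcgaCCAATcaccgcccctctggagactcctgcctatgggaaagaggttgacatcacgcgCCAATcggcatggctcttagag

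The windows lie at chr15:59105016-59105165 (plus strand), chr16:23678759-23678908 (plus), chr1:43358851-43359000 (plus), chr10:60778348-60778497 (plus), chr10:128126404-128126553 (minus), chr5:69167020-69167169 (plus), chr9:89311065-89311214 (plus) and chr3:172750596-172750745 (plus). In CCNB2, which encodes cyclin B2, 3 CCAAT boxes begin 120, 87 and 54 bases before the start and the CHR begins 29 bases before it. PLK1, MKI67 and CKS2 also have a CHR match that begins 29 bases before the start, on the opposite strand in CKS2. In MKI67 that CHR shares its last letter with a CCAAT box on the opposite strand, so that the capitals run together. CDK1 holds CHR matches that begin 69 and 13 bases before its start and another after it. CCNB1 has 2 CCAAT boxes and none of the CHR letters searched in this window. CKS2 and ECT2 hold both elements. For a member with 2 windows, the one with more CHR and CCAAT matches was printed. The other window of ECT2 had 2 CHR and 0 CCAAT matches over its full length, and that of CDK1 had 1 of each. Members with a CHR match had a median log2 change in YT of -2.65 and the 8 without one a median of -2.53.

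As a check of the labels, each silenced transcript was lower in every library named for its siRNA than in any other. YAP1 stood at 114 and 105 CPM (read counts that the authors rescaled to a common library size) in control and at 16.3 and 13.02 CPM in YT, and WWTR1 at 133 and 144 CPM against 22.8 and 16.7 CPM. The cGAS transcript, listed as MB21D1, was at 1.30 to 1.94 CPM in the 4 libraries with cGAS siRNAs and at 4.67 to 9.60 CPM in the other 8. The STING transcript, listed as TMEM173, was at 1.28 to 1.93 CPM in the 4 libraries with STING siRNAs and at 18.1 to 29.9 CPM elsewhere. The libraries held 17790774 to 20650727 reads, at which 3 reads are worth 0.142 to 0.170 CPM, a limit that covers counting error only. No member was at 0 reads in any library, and the fewest were the single reads of CENPA in YT 3 and cGAS_YT 10 and of SPC25 in cGAS_YT 10. Fibroblast markers summed to 24275 to 38603 CPM, and the 4 of 18 markers of other cell types that were measured summed to 7.98 to 28.3 CPM. The other 14 are not analysed here. Whether replicates were separate cultures is not stated, and p-values therefore reflect the spread among these libraries alone, which may be technical.

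Depletion of YAP and TAZ lowered nearly the whole set. In YT against control 47 of 48 members fell and none rose, at an adjusted p below 0.05 by limma over all genes tested, where 20.9% of all genes were called lower and 20.6% higher. The median log2 change of the members was -2.57 (all log2 values are on log2(CPM + 1)), beside 0.00 for all genes tested. On the linear scale the mean CPM left in YT was 12.8% of control at the median, from 6.71% for NCAPH to 94.1% for ECT2, and 41 members kept less than 25%. Summed over the members, the level was 1965 and 2109.6 CPM in the control libraries and 403 and 387 CPM in YT, or 19.4% of control. Of 12 fibroblast markers 2 were lower and none higher, with a median change of -0.07, and VIM, the intermediate filament of fibroblasts, fell by 0.79 ± 0.13 (± SE). Of the 4 markers of other cell types KRT15, an epithelial keratin, was lower (-0.93 ± 0.30). The part of these markers in the result was not tested. The same 47 members were called lower in each of the 21 alternative analyses. Wherever none is given for a direction of the members, the count was also 0 at an unadjusted p below 0.05 in limma and at an adjusted p below 0.05 in edgeR and DESeq2, except for a single gene in the cGAS interaction.

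**Figure D1:**
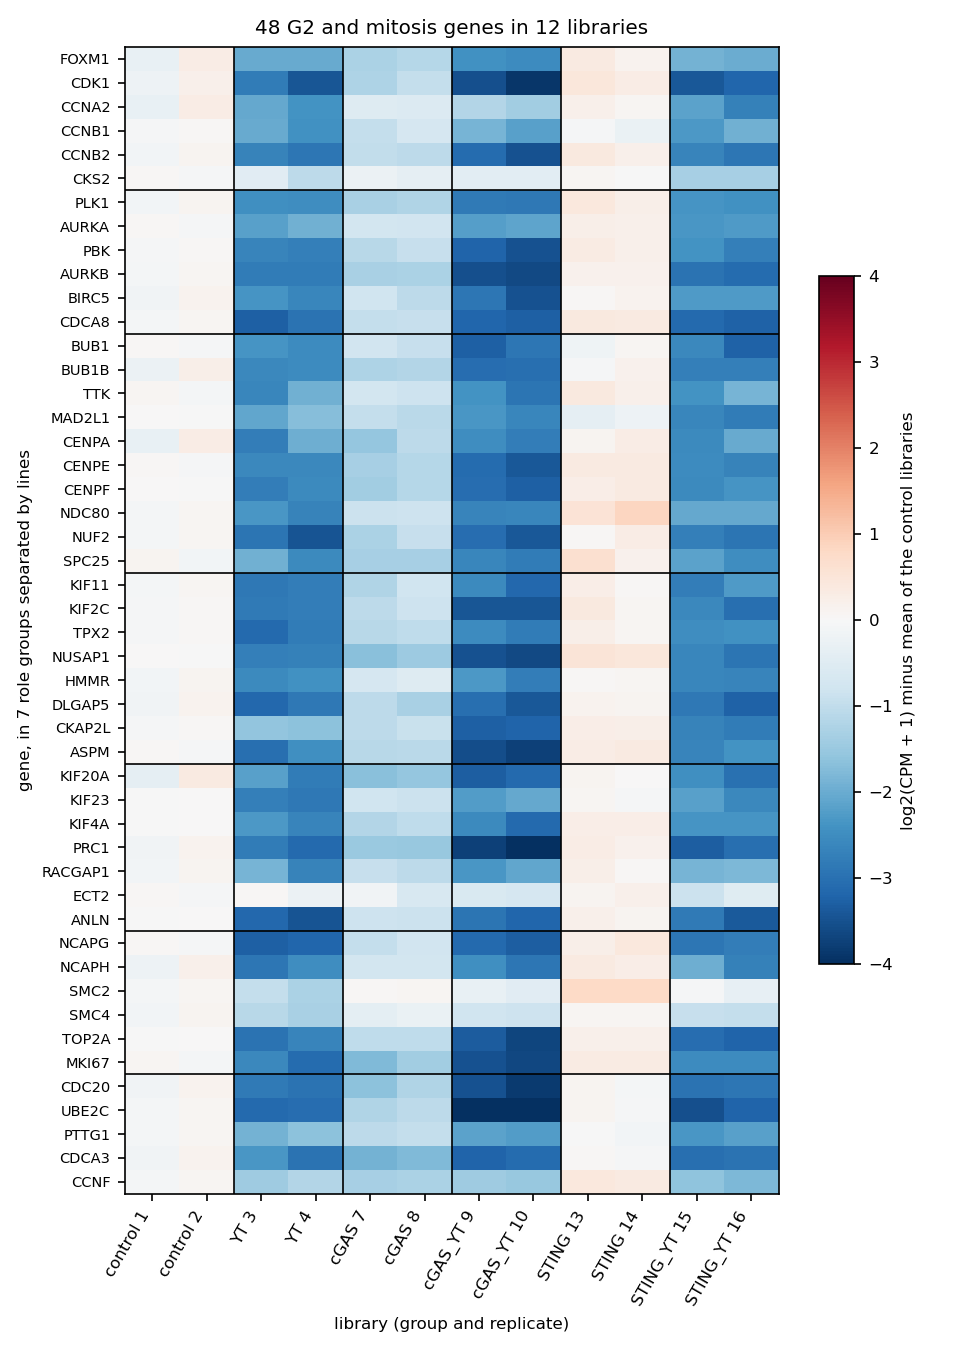
Level of each of the 48 members (rows, in 7 role groups separated by lines) in each of the 12 libraries (columns), as log2(CPM + 1) minus the mean of the 2 control libraries; blue is lower and red is higher than control. The YT, cGAS_YT and STING_YT columns are darkest, the cGAS columns are intermediate, and the ECT2, CKS2 and SMC2 rows stay pale.

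Among the regulators of entry into mitosis all 6 fell. This count and those of the other role groups are parts of the 47 of 48 members called lower, beside 20.9% of all genes. CDK1, the kinase that starts mitosis, was at 26.5 and 35.5 CPM in the control libraries and at 3.59 and 1.96 CPM in YT. It kept 8.96% of control (log2 change -3.10 ± 0.22, adjusted p = 1.66e-08), the largest fall of this role group. CCNB1, which encodes cyclin B1, was at 26.7 and 28.6 CPM in control and 6.08 and 4.37 CPM in YT (-2.22 ± 0.19). The A-type cyclin gene CCNA2 was at 15.7 and 23.9 CPM in control and 3.96 and 2.88 CPM in YT (-2.22 ± 0.22), and its 2 control libraries differed from each other more than those of CCNB1. FOXM1, the transcription factor that drives many late cell cycle genes, was at 14.5 and 22.1 CPM against 3.65 CPM in both YT libraries (-2.02 ± 0.19). CCNB2 changed by -2.78 ± 0.19. CKS2, a small protein that binds cyclin-dependent kinases, changed least of the 6, from 21.1 and 19.8 CPM to 14.8 and 9.42 CPM (-0.74 ± 0.17, adjusted p = 0.00217), and kept 59.1% of control.

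All 6 mitotic kinase and chromosomal passenger genes fell, between 4.47-fold and 12.3-fold. CDCA8, which encodes borealin of the passenger complex, fell most, from 24.4 and 26.8 CPM to 1.74 and 2.42 CPM (-3.12 ± 0.17). BIRC5, or survivin, of the same complex was the most abundant of the 6, at 49.3 and 60.2 CPM in control and 9.88 and 8.03 CPM in YT (-2.48 ± 0.17). Levels can be set side by side in this way because the kit reads 3′ ends, about 1 fragment per transcript whatever its length. AURKB, the kinase of the passenger complex, changed by -2.80 ± 0.14. PLK1, the polo kinase that matures centrosomes and spindles, went from 35.7 and 41.5 CPM to 6.23 and 6.02 CPM (-2.47 ± 0.14). AURKA, the centrosomal Aurora kinase, changed least here, from 46.5 and 44.3 CPM to 9.19 and 11.1 CPM (-2.06 ± 0.13). PBK, a mitotic kinase, changed by -2.69 ± 0.19. Of all genes tested 20.9% were called lower in this comparison.

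All 10 kinetochore and checkpoint genes fell. CENPF, a large protein of the outer kinetochore, was the most abundant, at 121 CPM in both control libraries and 16.9 and 20.1 CPM in YT (-2.65 ± 0.12). NUF2, a subunit of the NDC80 complex that grips microtubules, had the largest log2 change, from 24.1 and 27.6 CPM to 2.54 and 1.44 CPM (-3.19 ± 0.21), and kept 7.69% of control. Its partners NDC80 and SPC25 changed by -2.49 ± 0.19 and -2.23 ± 0.25. MAD2L1, the checkpoint protein MAD2, changed least, from 15.9 and 15.2 CPM to 2.96 and 4.07 CPM (-1.89 ± 0.19). The checkpoint kinases BUB1, BUB1B and TTK changed by -2.44 ± 0.23, -2.55 ± 0.19 and -2.26 ± 0.26. CENPA, the histone H3 variant of centromeres, was the member with the widest replicate gap in YT, at 0.0528 CPM (1 read) in YT 3 and 0.875 CPM in YT 4, against 4.83 and 7.90 CPM in control (-2.36 ± 0.31). On the linear scale CENPA kept the least of the 10, 7.29%.

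Of the 8 spindle motor and microtubule genes all fell, and 7 of them kept less than 25% of control. TPX2, which activates AURKA on spindle microtubules, was the most abundant, at 69.7 and 73.5 CPM in control and 7.45 and 9.42 CPM in YT (-2.95 ± 0.13). DLGAP5, a spindle assembly factor also called HURP, fell most, from 19.0 and 23.1 CPM to 1.48 and 2.06 CPM, 8.40% of control. The plus-end motor KIF11, which separates spindle poles, changed by -2.80 ± 0.23, and the microtubule depolymerase KIF2C by -2.80 ± 0.19. CKAP2L, a spindle protein, stood apart at 26.2 and 28.4 CPM in control and 8.51 and 8.03 CPM in YT (-1.61 ± 0.15), which left 30.3% of control.

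The 7 cytokinesis genes, of which 6 fell, held both the largest and the smallest log2 change of the set. ANLN, the actin-binding anillin of the cleavage furrow, fell from 83.6 and 84.6 CPM to 8.56 and 6.74 CPM (-3.31 ± 0.16, adjusted p = 1.61e-10). ECT2, the exchange factor that activates RHOA at the furrow, was at 31.2 and 29.7 CPM in control and at 31.7 and 25.6 CPM in YT, so that the groups overlapped (-0.09 ± 0.16, adjusted p = 0.691). RACGAP1, which binds ECT2, fell with the rest of the set and changed by -2.27 ± 0.24, and KIF23, the motor that joins RACGAP1 in centralspindlin, by -2.79 ± 0.16. PRC1, which bundles the microtubules of the central spindle, changed by -2.95 ± 0.19.

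All 6 condensin and chromosome genes fell, by unequal amounts. The core subunit gene SMC2 was at 49.9 and 56.0 CPM in control and 26.8 and 21.5 CPM in YT (-1.11 ± 0.12), and its partner SMC4 at 152 and 176 CPM against 75.4 and 66.5 CPM (-1.20 ± 0.09). NCAPG, a condensin I subunit, went from 32.9 and 30.3 CPM to 2.38 and 2.62 CPM (-3.22 ± 0.16), and NCAPH, the other condensin I subunit measured, changed by -2.69 ± 0.26. Differences between subunits were not tested. TOP2A, the topoisomerase that untangles sister chromatids, was the most abundant member of all, at 309 CPM in both control libraries and 38.8 and 48.9 CPM in YT (-2.80 ± 0.11). MKI67, the proliferation marker Ki-67 that coats mitotic chromosomes, went from 59.7 and 54.3 CPM to 8.61 and 5.92 CPM (-2.83 ± 0.16).

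All 5 genes of ubiquitin-dependent mitotic exit fell. UBE2C, the ubiquitin-conjugating enzyme of the anaphase-promoting complex, fell most, from 38.5 and 42.4 CPM to 3.75 and 4.07 CPM (-3.08 ± 0.17). CDC20, its mitotic activator, changed by -2.89 ± 0.20. PTTG1, or securin, which blocks separase until anaphase, was the most abundant of the 5 and went from 95.9 and 106 CPM to 26.4 and 31.5 CPM (-1.77 ± 0.11). CCNF, or cyclin F, the substrate receptor of an SCF ubiquitin ligase, changed least, from 18.3 and 20.7 CPM to 6.66 and 8.08 CPM (-1.30 ± 0.16).

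**Figure D2:**
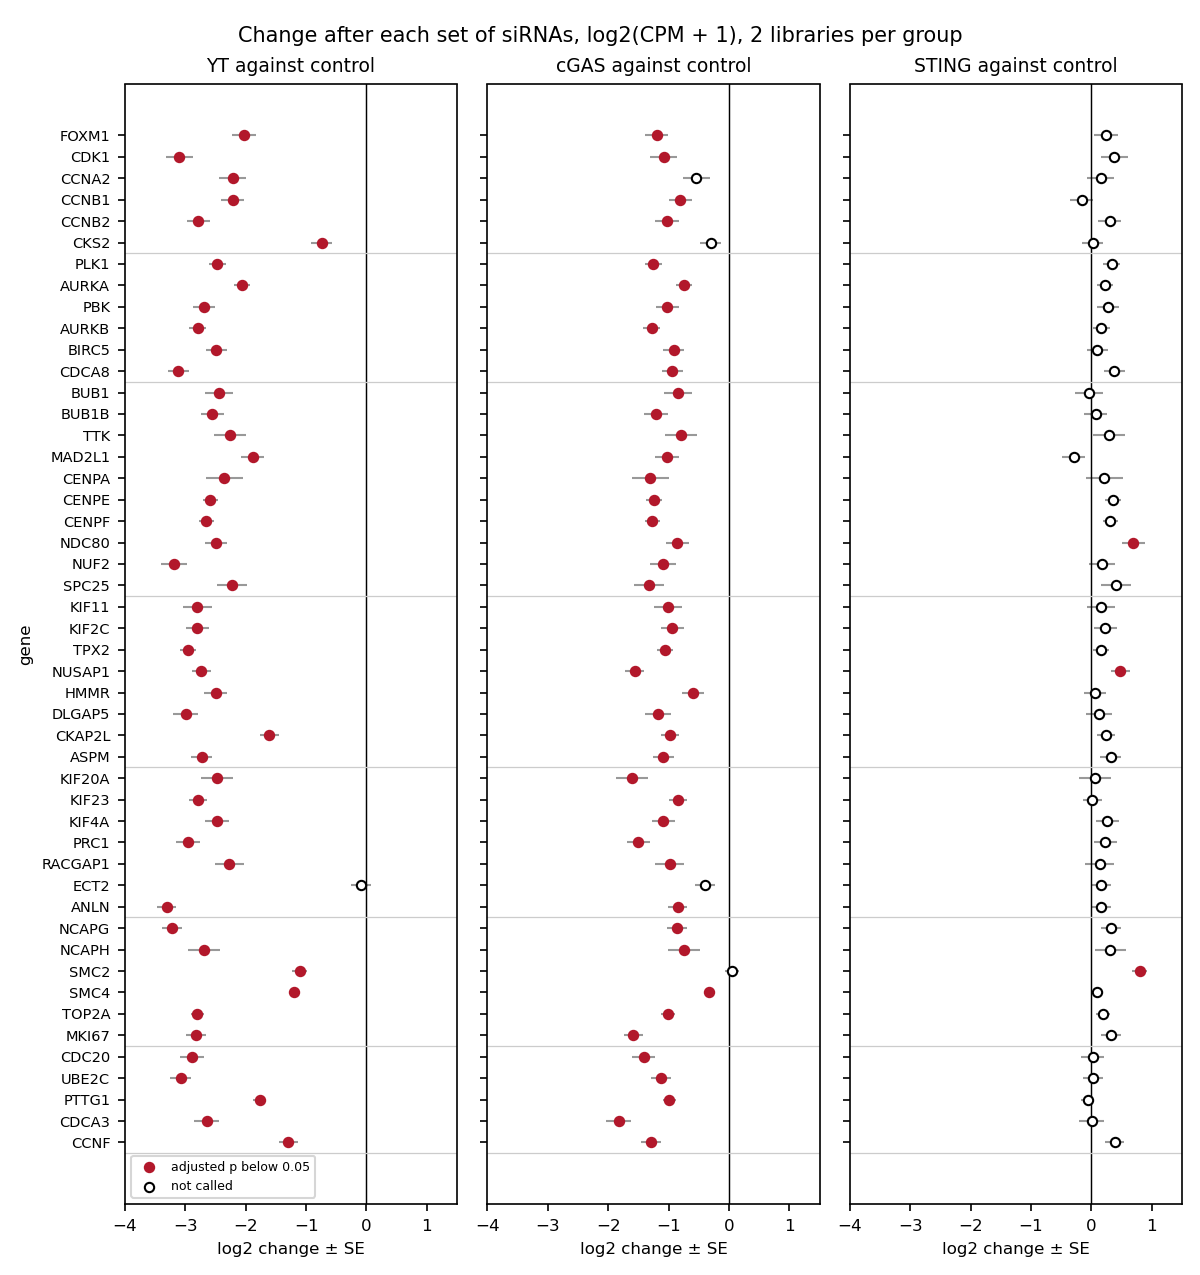
Log2 change of each member ± SE (horizontal axis) in YT, cGAS and STING against control, 2 libraries per group; filled points passed an adjusted p of 0.05 by limma. In YT 47 points lie to the left and are filled, in cGAS 44, and in STING 3 filled points lie to the right. The 3 comparisons share the 2 control libraries.

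The cGAS siRNAs alone also lowered most of the set. In cGAS against control 44 of 48 members fell and none rose, where 14.3% of all genes were called lower and 11.1% higher. The median log2 change was -1.02, beside -0.02 for all genes tested, and the median level left was 46.9% of control. Summed over the members, the level was 1018 and 1066 CPM, 51.1% of control. The largest log2 changes were those of CDCA3, a trigger of mitotic entry (-1.83 ± 0.21), KIF20A, a cytokinesis motor (-1.60 ± 0.26), and MKI67 (-1.58 ± 0.16). CDCA3 was at 5.21 and 5.84 CPM in cGAS against 20.1 and 24.3 CPM in control. KIF20A was at 4.82 and 5.30 CPM against 13.3 and 22.6 CPM, control libraries that differ from each other by 0.72 on the log2 scale. MKI67 was at 16.1 and 20.9 CPM, below both control libraries.

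The members that did not pass were SMC2 (0.05 ± 0.12, at 54.5 and 55.3 CPM), CKS2 (-0.31 ± 0.17), ECT2 (-0.40 ± 0.16, adjusted p = 0.0879) and CCNA2 (-0.54 ± 0.22, adjusted p = 0.0848). CCNA2 was at 13.1 and 12.9 CPM in cGAS, below both control libraries. SMC4 passed with a small change (-0.33 ± 0.09). The 6 mitotic entry genes spread from -0.31 for CKS2 to -1.20 for FOXM1, and CDK1, at 12.6 and 15.5 CPM, kept 45.3% of control. Across the alternatives 37 to 46 members were called lower. The muscle marker MYH11 was higher in cGAS (4.93 and 6.97 CPM against 2.80 and 1.82 CPM, log2 change 1.07 ± 0.26), the only 1 of the 4 measured markers of other cell types to pass, and their sum was 12.4 and 12.9 CPM against 8.62 and 8.24 CPM. Of 12 fibroblast markers 5 were lower and 2 higher. The part of these markers in the result was not tested.

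The STING siRNAs alone left the set at or slightly above the control level. In STING against control 3 of 48 members rose and none fell, where 6.14% of all genes were called higher and 8.86% lower, so the members' share of 6.25% higher is near that of all genes. The median log2 change was 0.20, beside 0.00 for all genes. SMC2 rose from 49.9 and 56.0 CPM to 93.0 and 92.1 CPM (0.80 ± 0.12, adjusted p = 0.000283). NDC80 rose from 14.6 and 16.2 CPM to 22.8 and 28.5 CPM (0.69 ± 0.19, adjusted p = 0.0189). NUSAP1, which bundles spindle microtubules, rose from 39.2 and 37.6 CPM to 55.1 and 52.8 CPM (0.48 ± 0.16, adjusted p = 0.0494). In each of these the groups did not overlap, and the share of all genes without overlap was not counted. The mean CPM of 44 of the 48 members was above control, at a median of 115%, and the exceptions included MAD2L1 at 80.6% and CCNB1 at 89.4%. The log2 change was also above 0 in 44 members, beside 7022 of the 13894 genes tested. All members share the same 2 control libraries. CDCA3 (0.01 ± 0.21), KIF23 (0.02 ± 0.16) and CKS2 (0.02 ± 0.17) were closest to 0. The summed level was 2392 and 2339 CPM, 116% of control. KRT15, the only 1 of the 4 measured markers of other cell types to pass, was higher (1.02 ± 0.30), and their sum was 11.1 and 12.02 CPM against 8.62 and 8.24 CPM. Of 12 fibroblast markers 1 was lower and 1 higher. The part of these markers in the result was not tested. Replicates of control also differed, control 2 being above control 1 in 35 of 48 members, by 0.14 at the median. Only 1 of the 3 calls was left without control replicate 1, without control replicate 2 or without STING replicate 14, and 5 members were called without YT replicate 3 or without YT replicate 4.

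In combination with the cGAS siRNAs, the YAP and TAZ siRNAs still lowered most of the set. In cGAS_YT against cGAS 45 of 48 members fell and none rose, where 12.7% of all genes were called lower and 15% higher. The median log2 change was -1.87, beside 0.03 for all genes. UBE2C, at 16.9 and 19.0 CPM in cGAS, was at 1.61 and 1.25 CPM in cGAS_YT (-2.97 ± 0.17), and CDK1, at 12.6 and 15.5 CPM, was at 1.75 and 1.14 CPM (-2.62 ± 0.22). PRC1 and ASPM, a spindle pole protein, each changed by -2.56. The 3 members not called were CKS2 (-0.11 ± 0.17), CCNF (-0.17 ± 0.16) and ECT2 (-0.24 ± 0.16). CCNF was at 7.20 and 7.51 CPM in cGAS and at 6.66 and 6.23 CPM in cGAS_YT. CKS2 was at 17.2 and 15.6 CPM in cGAS and at 15.1 CPM in both cGAS_YT libraries. CCNA2 passed with a change of -0.73 ± 0.22 (adjusted p = 0.0212). The summed level was 374 and 335 CPM, or 17.4% of control, and cGAS_YT 10 was below cGAS_YT 9 in 39 of 48 members. MYH11 was higher in cGAS_YT than in cGAS, and the 4 markers of other cell types summed to 25.1 and 28.3 CPM. Their part in the result was not tested.

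With STING depleted, all 48 members fell after the YAP and TAZ siRNAs. In STING_YT against STING 19.8% of all genes were called lower and 19.1% higher, and the members' median log2 change was -2.76, beside 0.03 for all genes. CDK1 went from 42.5 and 37.7 CPM to 1.999 and 2.54 CPM (-3.66 ± 0.22), CDCA8 from 34.0 and 33.1 CPM to 2.11 and 1.83 CPM (-3.54 ± 0.17), and UBE2C changed by -3.40 ± 0.17. The smallest changes were those of ECT2, SMC2 and SMC4. ECT2, which did not pass in YT against control, went from 33.1 and 35.1 CPM to 16.3 and 21.5 CPM (-0.83 ± 0.16, adjusted p = 0.00074). SMC2 went from 93.0 and 92.1 CPM to 51.0 and 41.6 CPM (-0.99 ± 0.12), against 49.9 and 56.0 CPM in control, and SMC4 changed by -1.02 ± 0.09. All 48 calls were made in each of the 21 alternatives. KRT15 was lower (-1.47 ± 0.30), and of 12 fibroblast markers 3 were higher and 1 lower, and their part in the result was not tested. The summed level was 409.6 and 396 CPM, 19.8% of control.

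**Figure D3:**
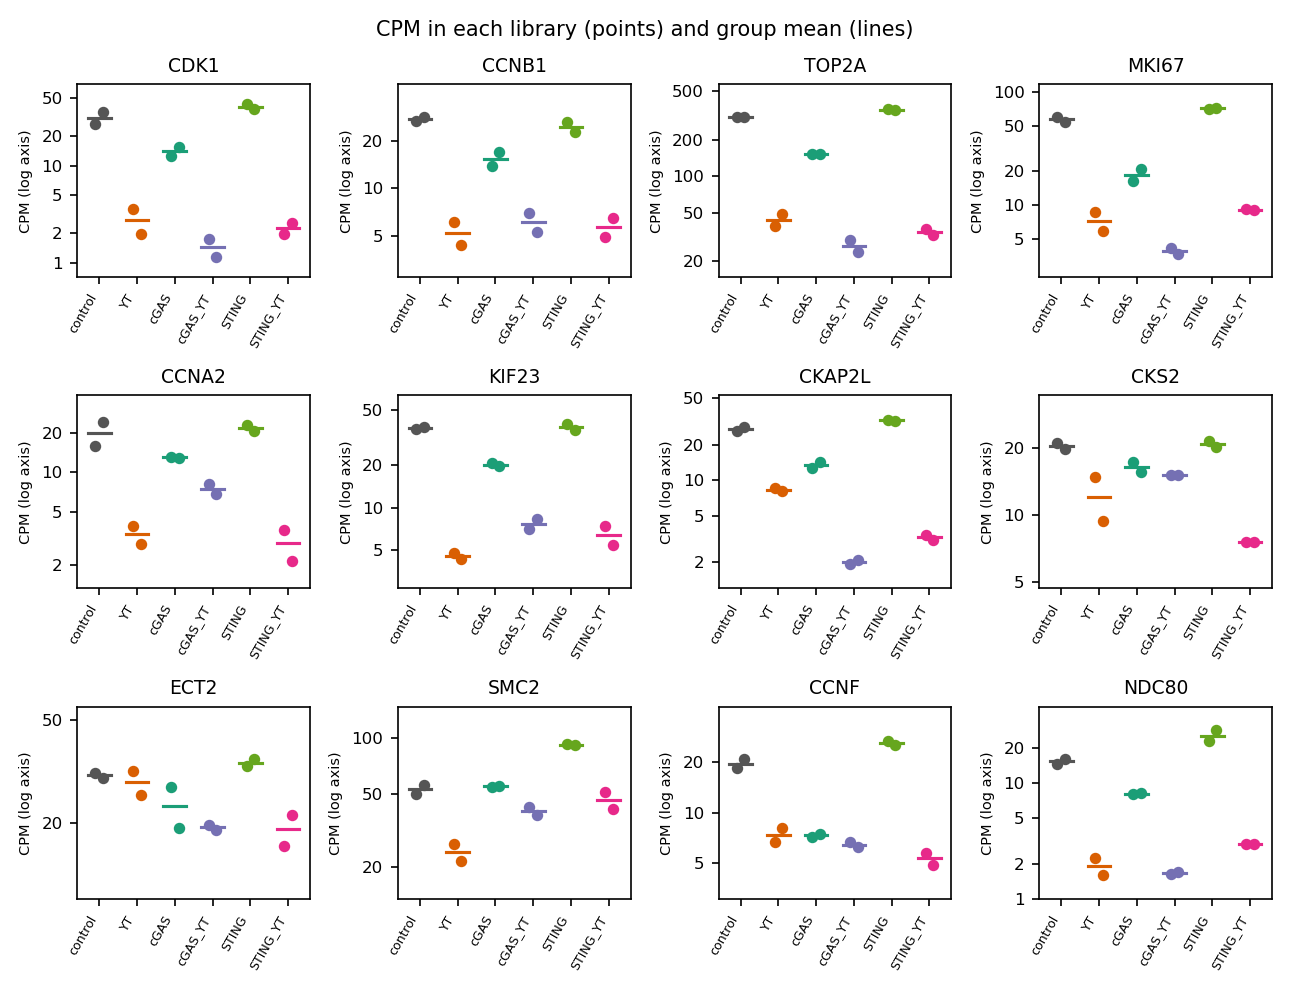
CPM (log axis) of 12 members in each library (points, 2 per group, with the group mean as a line). CDK1, CCNB1, TOP2A and MKI67 share a pattern with 3 low groups, while CCNA2 and KIF23 lie higher in cGAS_YT than in YT, CKAP2L lies lower there, and ECT2 and CKS2 vary least.

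Doubly treated groups were next set against YT alone, which asks whether the cGAS or STING siRNAs add to the low level. In cGAS_YT against YT 22 members fell and 4 rose, shares of 45.8% and 8.33%, where 20.2% of all genes were called lower and 20.5% higher. The median log2 change was -0.43, beside 0.00 for all genes. CKAP2L had the largest log2 change, from 8.51 and 8.03 CPM in YT to 1.94 and 2.08 CPM (-1.62 ± 0.15, adjusted p = 3.46e-07), followed by PRC1 (-1.11 ± 0.19) and UBE2C (-1.02 ± 0.17). On the linear scale SPC25 kept least, 19.9% of its level in YT against 24.3% for CKAP2L. The 4 that rose were CCNA2, from 3.96 and 2.88 CPM to 8.12 and 6.85 CPM (0.95 ± 0.22), SMC2, from 26.8 and 21.5 CPM to 42.5 and 38.3 CPM (0.73 ± 0.12), KIF23, from 4.75 and 4.27 CPM to 7.08 and 8.25 CPM (0.65 ± 0.16), and SMC4 (0.38 ± 0.09). NCAPG (0.01 ± 0.16), NCAPH (0.02 ± 0.26) and HMMR, a spindle protein (-0.03 ± 0.18), were among those closest to 0. MYH11 was higher by 2.75 ± 0.26, and of 12 fibroblast markers 6 were higher and 3 lower. Their part in the result was not tested. Without cGAS_YT replicate 10 the members' counts were 10 lower and 5 higher.

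In STING_YT against YT 6 members fell and 4 rose, shares of 12.5% and 8.33%. Both are below those of all genes, of which 18.0% were called lower and 16% higher. The median change was 0.00, beside 0.01 for all genes. CKAP2L was again the lowest, at 3.44 and 3.10 CPM (-1.12 ± 0.15, adjusted p = 3.13e-05), followed by MAD2L1, at 1.72 and 1.37 CPM against 2.96 and 4.07 CPM in YT (-0.82 ± 0.19). CKS2 and ECT2 each changed by -0.58, PTTG1 by -0.49 ± 0.11 and TOP2A by -0.32 ± 0.11. SMC2 was the highest, at 51.0 and 41.6 CPM (0.91 ± 0.12), and TPX2 (0.50 ± 0.13), KIF23 (0.42 ± 0.16) and SMC4 (0.26 ± 0.09) also rose. CCNB2 was at 2.66 and 2.08 CPM against 2.59 and 2.11 CPM in YT, and with KIF2C and CENPE, a kinetochore motor (-0.01 ± 0.13), was closest to 0. The counts were 4 lower and 2 higher without STING_YT replicate 15, 6 and 8 without YT replicate 3, and 5 and 2 without STING replicate 13 or without STING replicate 14. None of the 4 markers of other cell types passed, and of 12 fibroblast markers 4 were higher and 1 lower. This comparison and that of cGAS_YT with YT share the 2 YT libraries.

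Whether the YAP and TAZ siRNAs had a different effect with cGAS depleted was tested as an interaction, the change in cGAS_YT against cGAS minus that in YT against control. The value was positive, meaning a smaller fall on log2(CPM + 1) with cGAS depleted, in 21 members that passed (43.8%). None passed with a negative one, where 7.5% of all genes were called positive and 5.93% negative. The median over the members was 0.73, beside 0.02 for all genes. On the linear scale 19.5% was left at the median against 12.8% without the cGAS siRNAs, and the share left was larger in 42 of the 48 members. It was smaller in 6, though only 2 members had a log2 value below 0, beside 6630 of the 13894 genes tested. UBE2C kept 7.93% with and 9.66% without the cGAS siRNAs, and SPC25 6.25% and 9.51%. The added 1 weighs more at low CPM, so a positive value need not mean a larger share left. KIF23 (1.49 ± 0.22, adjusted p = 0.000202), CCNA2 (1.49 ± 0.31), TPX2 (1.36 ± 0.19) and CDCA3 (1.33 ± 0.30) had the largest values. In YT KIF23 kept 12.2% of its control level, and in cGAS_YT 37.9% of its level in cGAS. For CCNA2 these shares were 17.3% and 57.5%, and for TPX2 11.8% and 31.3%. CCNF, whose level in cGAS was already near that in YT, had a value of 1.13 ± 0.23. CKAP2L had the lowest, -0.65 ± 0.22 (adjusted p = 0.0583), and it was negative at an unadjusted p below 0.05 and passed in 6 of the 21 alternatives, edgeR and DESeq2 among them. UBE2C (0.11 ± 0.24), ASPM (0.17 ± 0.24) and ECT2 (-0.15 ± 0.23) were closest to 0. The count of 21 was 8 without cGAS replicate 7, 10 without cGAS_YT replicate 9 and 12 without control replicate 2. It was 11 when only the groups compared were fitted. A pseudocount of 4 gave 34 positive values and none negative, one of 0.25 gave 15 and 1, edgeR 14 and 1, and DESeq2 15 and 1. The median was between 0.61 and 0.78 in all alternatives. MYH11 also had a positive value (1.68 ± 0.37), as did 4 of 12 fibroblast markers, and their part in the result was not tested.

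The same test for STING gave 2 members with a negative value (4.17%), a larger fall with STING depleted, and none with a positive one. Of all genes 4.53% were called negative and 3.35% positive, so the members' share is near that of all genes. The median was -0.24, beside 0.00 for all genes, and the share left was smaller in 36 of the 48 members. The log2 value was below 0 in 36 members, beside 6967 of the 13894 genes tested. CKAP2L had the largest value (-1.36 ± 0.22, adjusted p = 0.00075). In YT it kept 30.3% of its control level, and in STING_YT 10.1% of its level in STING. CCNF had -0.78 ± 0.23 (adjusted p = 0.043), with 37.8% and 20.8% left in the same 2 comparisons. Only 1 of these 2 calls was left in 11 of the 12 analyses that left out a library and when only the groups compared were fitted. Both were left without YT replicate 3, where 5 members were called. A single member was called without control replicate 1, control replicate 2, STING replicate 13, STING replicate 14 or STING_YT replicate 15. ECT2 (-0.74 ± 0.23, adjusted p = 0.0637) and TOP2A (-0.52 ± 0.16, adjusted p = 0.0623) did not pass, and MKI67 (-0.02 ± 0.23), ANLN (0.04 ± 0.22) and CDC20 (-0.04 ± 0.28) were closest to 0.

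**Figure D4:**
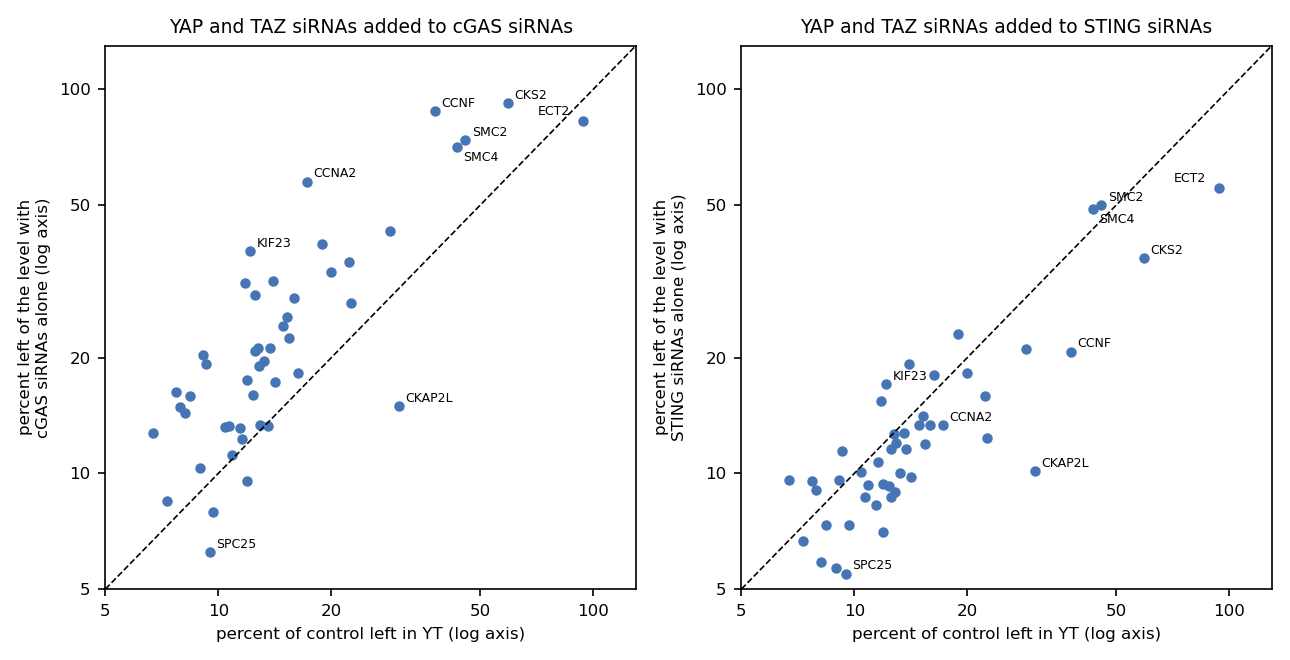
Percent of the mean CPM left after the YAP and TAZ siRNAs in otherwise control cells (horizontal, log axis) and in cells that also received cGAS siRNAs (left, vertical) or STING siRNAs (right, vertical), 1 point per member, with the line of equal values. On the left 42 points lie above the line and 6 below, and on the right 12 lie above and 36 below, with CKAP2L below it in both.

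The profiles of most members were close to one another over the 12 libraries. The correlation of a member's log2(CPM + 1) with the mean standardized profile of the other members had a median Pearson r of 0.98 and was at least 0.9 in 44 of 48, a description only, as the libraries share groups and members share cells. The least alike were ECT2 (0.69), CKS2 (0.75), SMC2 (0.76), CCNA2 (0.89) and CCNF (0.91). In levels these are ECT2 at 16.3 to 35.1 CPM, CKS2 at 7.55 to 21.4 CPM and SMC2 at 21.5 to 93.0 CPM, which set them apart from members such as CDK1, whose lowest and highest libraries were 1.14 and 42.5 CPM. Among 10208 genes outside the set with a mean of at least 5 CPM, the profiles most like that of the set were DTL (0.996), TMPO (0.992), TACC3 (0.992), EPAS1 (0.991), ARHGAP11A (0.991), WHSC1 (0.991), GTSE1 (0.990), MCM10 (0.989), HJURP (0.988) and LMNB1 (0.988). DTL encodes the substrate receptor of a ubiquitin ligase of S phase, TACC3 a spindle protein and LMNB1 lamin B1. EPAS1, the hypoxia factor HIF2A, stood at 319 and 337 CPM in control, 56.5 and 55.0 CPM in YT, 192 and 196 CPM in cGAS and 393 CPM in both STING libraries.

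Other lists of cell cycle genes, held beside the set, showed how far the fall reached. Among all genes 20.9% were called lower and 20.6% higher in YT against control, and 14.3% and 11.1% in cGAS against control. In the cGAS interaction 7.5% were positive and 5.93% negative. Of 54 further G2 and mitosis genes 53 fell in YT against control and none rose (median -2.10), with ZWINT of the kinetochore at -3.21 ± 0.17, CEP55 of the midbody at -3.13 ± 0.16 and TACC3 at -2.02 ± 0.12. The exception was NCAPH2, the condensin II subunit (-0.25 ± 0.14). In cGAS against control 41 of the 54 fell, and in the cGAS interaction 25 had a positive value and 1 a negative one (median 0.84). Of 36 DNA replication genes 33 fell in YT (median -1.26), with RRM2 of ribonucleotide reductase at -2.70 ± 0.16, TYMS, thymidylate synthase, at -1.47 ± 0.12 and the origin licensing factor CDC6 at -2.11 ± 0.20.

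Factors upstream of the set moved unequally. Of 13 measured members of MuvB, DREAM and B-MYB 6 fell and 2 rose in YT (median -0.49). For this and the next 2 lists, 20.9% of all genes were called lower and 20.6% higher. MYBL2, which encodes B-MYB, went from 23.4 and 35.3 CPM to 3.80 and 4.07 CPM (-2.59 ± 0.19), and TFDP1, the partner of E2F factors, changed by -1.30 ± 0.15 and MYBL1, or A-MYB, by -1.11 ± 0.17. MYBL2 was also lower in cGAS, at 7.31 and 6.92 CPM (-1.87 ± 0.19). Of 11 G1 cyclins, kinases and activator E2Fs 7 fell and 1 rose (median -0.58), with E2F1 at -1.73 ± 0.20, the phosphatase CDC25A at -1.59 ± 0.20 and CDK6 at -1.18 ± 0.09. Of 8 CDK inhibitors and RB 4 rose and 2 fell. CDKN2B, which encodes the CDK4 and CDK6 inhibitor p15, rose from 21.5 and 20.7 CPM to 60.2 and 49.9 CPM (1.33 ± 0.13), and CDKN1B, or p27, by 0.74 ± 0.11. RB1, the retinoblastoma protein that holds E2F factors, fell by 1.39 ± 0.21.

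The anaphase-promoting complex and cohesin act in mitosis with subunits that are present through the cycle. Of 15 measured anaphase-promoting complex genes and regulators 8 fell and 1 rose in YT (median -0.27), beside 20.9% lower and 20.6% higher among all genes, with FBXO5, the inhibitor EMI1, at -1.41 ± 0.16, the subunit gene CDC23 at -0.75 ± 0.15 and the G1 activator FZR1 at 0.41 ± 0.12. Of 14 cohesin genes and regulators 4 fell and 5 rose (median 0.20). ESCO2, the acetyltransferase that makes cohesion stable in S phase, changed by -2.73 ± 0.25 and CDCA5, or sororin, by -2.50 ± 0.22, while SMC3 of the ring changed by -0.70 ± 0.09.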

How the data were processed

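Libraries were made with a kit that sequences messenger RNA 3′ ends, per the labels' protocols. Tools named in the submitters' processing notes are featureCounts, edgeR and STAR 2.5.3a, with the build hg38, and the sources used here do not give parameters, strand or annotation. The deposited signal values are CPM scaled by the authors with TMM, and 100% were whole multiples of 1 read within 0.01 reads. The test was limma 3.58.1 (trended prior, 6 groups, 12 libraries, R 4.3.3) on log2(CPM + 1) of the 13894 genes that reached 1 CPM in 2 or more libraries. Adjustment was by Benjamini-Hochberg within each of the 9 contrasts, at 0.05. The 21 alternatives changed the pseudocount (0.25 or 4), filter, scaling, prior or groups fitted, left out each library, or used edgeR 4.0.16 and DESeq2 1.42.0 on recovered reads. Counts were simulated at the depths of these libraries, with 200 genes of a mean of at least 5 CPM changed in YT. YT against control called 39 of 67 genes changed 1.5-fold, 63 of 67 changed 2-fold and 66 of 66 changed 4-fold. Of its 181 calls 13 were false. The real comparison called far more genes, 2908 lower and 2865 higher, and CENPA, SPC25, TTK and NCAPH have means below 5 CPM. These rates need not carry over to the members. Values in every library were given for the most abundant, most lowered and least changed member of each role group, and CDK1, CCNB1, FOXM1, MKI67, TOP2A and PLK1. For the other contrasts the 3 largest and 3 smallest changes and members against the majority were named, for other lists the 3 smallest p-values, and the least alike members and most alike genes. Other genes named were chosen after their values were seen. KNL1 is listed as CASC5. PTTG1 shares sequence with PTTG2 and PTTG3P, so its reads are uncertain as far as counting could split them. Motifs were searched in RefSeq promoters. The members and lists were chosen with earlier results of these data known.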

Additional observations from a re-analysis of the deposited data

Results flagged for a closer look

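A test of the difference itself set 23 values apart, all from the 2 interactions of the YAP and TAZ siRNAs with the cGAS or STING siRNAs, as log2 differences of changes. In the cGAS interaction, a smaller fall with cGAS depleted, the values were 1.49 for KIF23, 1.49 for CCNA2, 1.36 for TPX2, 1.33 for CDCA3, 1.13 for CCNF, 1.12 for ANLN, 1.06 for NUF2, 1.06 for RACGAP1, 1.003 for CCNB1, 0.96 for DLGAP5, 0.87 for NCAPG, 0.87 for PLK1, 0.85 for MKI67, 0.83 for CDCA8, 0.76 for CENPF, 0.74 for NUSAP1, 0.71 for SMC4, 0.67 for SMC2, 0.66 for AURKA, 0.58 for CENPE and 0.58 for PTTG1. In the STING interaction, a larger fall with STING depleted, they were -1.36 for CKAP2L and -0.78 for CCNF. The share of members called there was 4.17%, beside 4.53% of all genes. CCNF thus had values of opposite sign in the 2 interactions, which share the control and YT libraries. Its STING value passed close to the threshold (adjusted p = 0.043 by limma). When only the groups compared were fitted, 11 members passed in the cGAS interaction and 1 in the STING interaction.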

How the results depend on the processing

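Every member call in YT against control and in STING_YT against STING was unchanged in all 21 alternatives, and 42 to 45 of the 45 calls in cGAS_YT against cGAS and 37 to 44 of the 44 in cGAS against control were kept. With only the groups compared in the fit, the members called numbered 11 in STING against control, 15 in cGAS_YT against YT, 5 in STING_YT against YT, 11 in the cGAS interaction and 1 in the STING interaction. A pseudocount of 4 gave 34 in the cGAS interaction, and DESeq2 gave 4 in the STING interaction. The cause of these moves was not tested. Leaving out 1 library at a time gave 1 to 5 calls in STING against control, 15 to 27 in cGAS_YT against YT, 6 to 14 in STING_YT against YT, 8 to 24 in the cGAS interaction and 1 to 5 in the STING interaction. No change of a called member turned in sign. No paired analysis was possible because each replicate number occurs in 1 library only. A lone sample left by an omitted library was assumed to vary like the other groups. Members under about 1 CPM in the doubly treated groups, such as CENPA and SPC25, rest on as few as 1 read per library, which limits their precision there.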
